A study of Mus musculus with 6 samples.

Results

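The genes described here encode 10 apolipoproteins, the protein components of the lipid particles that the liver releases into blood: Apoa1, Apoa2, Apoa4, Apoa5, Apob, Apoc1, Apoc3, Apoe, Apoh and Apom. They were chosen by symbol, and each of the 10 matched a single row among the 55536 genes of the files through the mouse annotation GENCODE M21. The RNA was from livers of C57BL/6 males, a common inbred mouse strain, aged 6 weeks when dosing began. The 3 treated libraries are from animals that swallowed polystyrene microplastics (PS-MP, fine plastic particles), 0.4 mg daily as stated, dosed 2 times weekly for 8 weeks, and the 3 control libraries are from animals that received water in the same way. No genotype other than the strain is named, and both groups carry it. Particle size, fasting state and hour of collection are not given in the sources used here, and no label says that each library is a separate mouse, so p-values measure the spread between libraries.

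Apolipoproteins hold lipid particles together, steer the enzymes that act on them and bind the receptors that clear them. Hepatocytes make most of the circulating apolipoproteins, which makes their mRNAs some of the most abundant in liver. Apolipoprotein B is the fixed structural protein of very low density lipoprotein (VLDL), apolipoproteins A-I and A-II are the main proteins of high density lipoprotein (HDL), and the smaller C proteins and apolipoprotein E move between particles. The comparison asked whether the levels of these transcripts differed in liver after PS-MP.

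None of the 10 genes differed between PS-MP and water past the threshold. With limma-trend fitted across 13299 genes, 0 of 10 had an adjusted p under 0.05 (0.489% of all genes tested did), and 0 of 10 had an unadjusted p under 0.05, which 13.1% of all genes tested had. Limma-voom, run on the reads behind the values, also called 0 of 10, with 2 at an unadjusted p under 0.05. Over all 13299 genes, limma-voom called 131 and had 1773 at an unadjusted p under 0.05. The values over all genes tested are the background for the later counts of lists and markers. All 10 genes passed the low-count rule, with 1233 reads or more in every library. The fitted fold changes ran from 0.71 for Apoa4 to 1.13 for Apoa5, where 1 means equal levels. For 9 of the 10 genes the 95% interval of the fold change lay within 1.5 times of equal in both directions, and Apoa4 was the exception. The median of their log2 fold changes was -0.08, against 0.01 for all genes tested, and 7 of the 10 were negative against 46.3% of all genes tested.

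**Figure D1:**
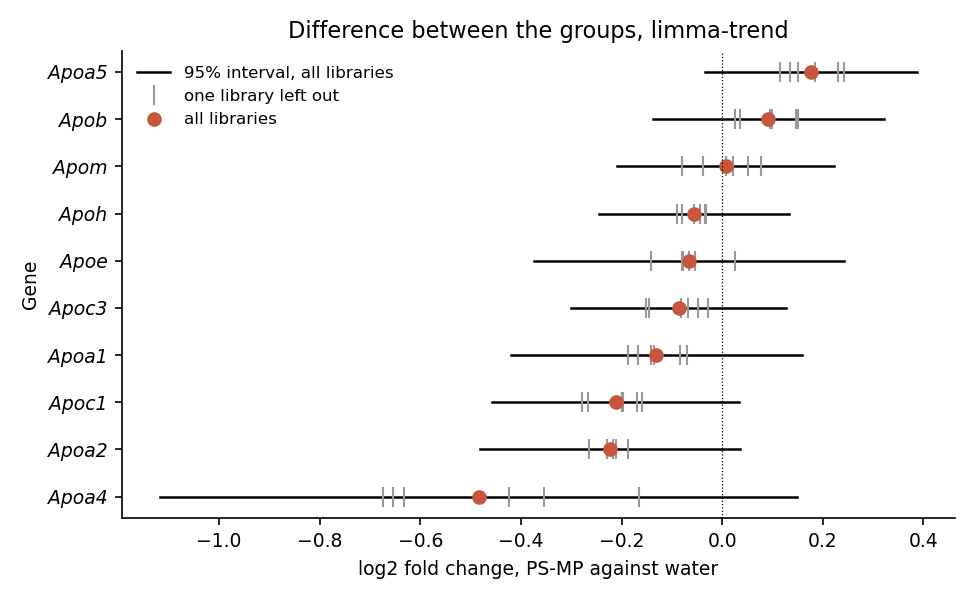
Log2 fold change of PS-MP against water for each apolipoprotein gene by limma-trend on log2(FPKM + 0.5). Red points are fits with all 6 libraries, black lines their 95% intervals and grey ticks the fits that leave out 1 library each; every black line crosses 0, and the longest belongs to Apoa4, whose interval on this scale ran from -1.12 to 0.15.

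The libraries had 13082210 to 16948343 reads, and the reads recovered from the deposited values were whole for 100% of the genes above 0, within 0.001 reads. The 12 hepatocyte markers all passed the low-count rule, with a summed level of 43958 to 46782 FPKM in water and 37441 to 44964 FPKM in PS-MP, the lowest in PS-MP replicate 3. Most of that sum was the albumin gene Alb, with 31419, 33953 and 30947 FPKM in water and 32191, 29824 and 24624 FPKM in PS-MP. Among the other markers only Ttr and Trf were also lowest in PS-MP replicate 3, Ttr narrowly (1865 FPKM, against 1879 FPKM in PS-MP replicate 1). FPKM is the number of reads per kilobase of exon, scaled to the reads of the library, so it compares levels between genes as well as between libraries. PS-MP replicate 3 stood apart by transcripts of brain: the 12 forebrain neuron markers summed to 4.33 to 5.06 FPKM in water, 10.7 and 6.71 FPKM in PS-MP replicates 1 and 2, and 50.5 FPKM in PS-MP replicate 3. Most of the water sum was Snhg11 (2.56 to 3.10 FPKM) and Syt1 (1.01 to 1.23 FPKM), which had reads in every library. Of the 12, only Gad1 and Stmn2, which define neurons, had no read in water. In PS-MP replicates 1, 2 and 3 Gad1 had 5, 3 and 79 reads and Stmn2 had 3, 0 and 66. Snap25 had 1, 2 and 0 reads in water and 61, 19 and 860 in PS-MP, so the other PS-MP libraries also held some. Of the 8 neuron markers tested none passed with limma-trend or limma-voom. An unadjusted p under 0.05 was found for 5 (62.5%) with limma-trend, against 13.1% of all genes tested, and for 4 with limma-voom. The 9 markers of fat summed to 43.6, 6.89 and 17.4 FPKM in water replicates 1, 2 and 3 and to 9.03, 6.43 and 29.1 FPKM in PS-MP, with Lep at no read in any library. Against these sums, the 10 apolipoprotein genes held 17981 to 19138 FPKM in water and 16535 to 17196 FPKM in PS-MP. In whole tissue, fewer cells of a type and less RNA per cell cannot be told apart.

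Upstream sequences are shown for the gene with the widest spread over libraries (Apoa4), the gene whose groups did not overlap (Apoa2) and the gene with the highest fitted fold change (Apoa5), which are the genes that stood out by these measures. They are from RefSeq on GRCm38.p6, plus strand, 5′ to 3′, each starting 250 bases before the annotated start site and ending before the first exon of a protein-coding gene in GENCODE M21, with motif matches in capitals. The Apoa2 stretch lies at chr1:171224804-171225053 and its capitals mark a TATA box match, 212 bases before the start site.
Apoa2: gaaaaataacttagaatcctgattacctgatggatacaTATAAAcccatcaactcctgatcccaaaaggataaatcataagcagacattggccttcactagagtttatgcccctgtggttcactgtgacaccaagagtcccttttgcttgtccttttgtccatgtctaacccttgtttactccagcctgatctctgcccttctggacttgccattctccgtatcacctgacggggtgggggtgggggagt
The Apoa4 stretch lies at chr9:46240594-46240695 and its capitals mark a match to the letters CAAAGNNCA, a form of the site bound by HNF4, the nuclear receptor that defines hepatocytes.
Apoa4: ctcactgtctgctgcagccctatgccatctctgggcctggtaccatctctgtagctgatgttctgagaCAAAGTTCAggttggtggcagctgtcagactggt
The Apoa5 stretch lies at chr9:46268383-46268632. Its capitals mark first a match to the E-box, the palindrome read by clock and other basic helix-loop-helix factors. They then mark a match to the TATA box letters, 56 bases before the start site.
Apoa5: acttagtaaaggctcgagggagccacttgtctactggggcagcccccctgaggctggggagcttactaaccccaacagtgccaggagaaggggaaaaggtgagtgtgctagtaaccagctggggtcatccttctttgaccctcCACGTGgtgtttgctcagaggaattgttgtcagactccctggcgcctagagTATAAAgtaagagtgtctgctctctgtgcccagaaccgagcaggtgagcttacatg

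RefSeq windows of 300 bases (250 before and 50 after the start site) were held for 8 of the 10 genes, with no entry for Apoc1 and Apoc3. Genes with several start sites had several windows, 12 in all for the 8 genes, and these were searched on both strands. The HNF4-type letters CAAAGNNCA were found in 3 of the 12 windows, those of Apoa4, Apob and Apoh, and in 6.36% of the 32851 windows of all genes. TATAAA was found in 5 of the 12 (of Apoa2, Apoa5, Apob and Apoe), against 13.6% of all windows, and the E-box CACGTG in 2 of the 12 (both of Apoa5), against 7.15%. AGGTCA, the half-site of nuclear receptors, was found in 2 of the 12 (of Apoa2 and Apoh), against 16.3% of all windows. The D-box TTANGTAA, the site of the clock output factor DBP and of its competitor NFIL3, was found in 0 of the 12 windows and in 2.32% of all windows. The letters CAAAGNNCA contain AGGTCA where the free pair is GT, which was not the case in Apoh, and no other searched motif contains another. A match describes letters and not a bound site.

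The order of the levels was steep and the same in both groups but for 1 exchange. In water the means were 5081 FPKM for Apoe, 4687 for Apoa1, 4342 for Apoa2, 1690 for Apoc1, 942.5 for Apoh, 661.6 for Apob, 445.3 for Apoc3, 312.3 for Apoa4, 252.8 for Apoa5 and 94.6 for Apom. Apoe was the 12th and Apom the 371st most abundant of all genes by mean FPKM. The neighbours Apoe and Apoa1, Apoa1 and Apoa2, and Apoa4 and Apoa5 overlapped in their water values, and the other neighbours in this order did not. In PS-MP the first 7 places were unchanged, Apoa5 stood above Apoa4 with overlapping values, and the neighbouring pairs Apoe and Apoa1 and Apoa1 and Apoa2 did not overlap. Because its mRNA is long (13934 bases of merged exons against 537 for Apoa2), Apob gave 134762 to 154878 reads per library, more than each of the others except Apoe, and more than Apoe in water replicate 3 and PS-MP replicate 1.

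**Figure D2:**
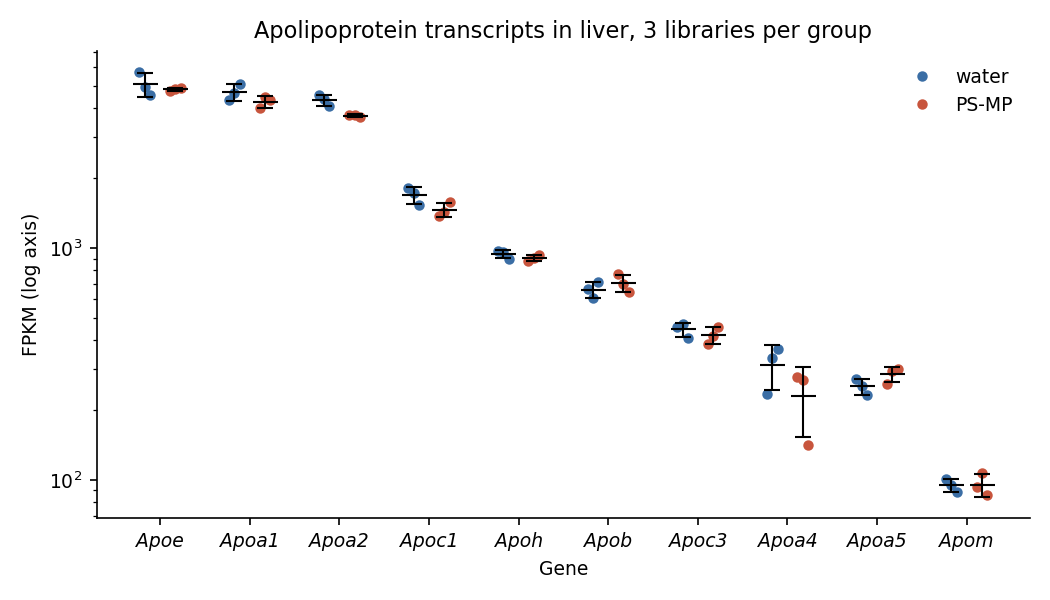
FPKM (log axis) of each apolipoprotein gene in the 3 water and 3 PS-MP libraries, with dots for libraries and black bars for the mean and SD of each group. The groups lie at nearly the same height for most genes, the Apoa2 dots of PS-MP (3656 to 3750 FPKM) sit below those of water (4096 to 4561 FPKM), and a single PS-MP library is low for Apoa4.

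Among the HDL proteins, Apoa1 encodes apolipoprotein A-I, the scaffold of HDL and activator of the cholesterol-esterifying enzyme LCAT (chromosome 9, 46228580 to 46230466). It had 4328, 4643 and 5090 FPKM in water replicates 1, 2 and 3 and 4001, 4496 and 4330 FPKM in PS-MP replicates 1, 2 and 3. The groups overlapped, with PS-MP replicate 1 the lowest of the 6 libraries. The fold change was 0.91 (95% interval 0.75 to 1.12, adjusted p = 0.701 by limma).

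Apoa2 encodes apolipoprotein A-II, the second protein of HDL (chromosome 1, 171225054 to 171226379). It had 4561, 4370 and 4096 FPKM in water and 3747, 3750 and 3656 FPKM in PS-MP. Every PS-MP library was below every water library, the single case of non-overlap among the 10 genes, where 19.2% of all genes tested had groups that did not overlap. The means were 4342 ± 234 and 3718 ± 53.1 FPKM (SD, n = 3 each), and the fold change of 0.86 (95% interval 0.72 to 1.02) did not pass, with an adjusted p of 0.448 by limma.

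Apom encodes apolipoprotein M, the HDL protein that carries sphingosine-1-phosphate (chromosome 17, 35128997 to 35132050). Its values were 100.6, 94.6 and 88.8 FPKM in water and 93.0, 107.0 and 86.0 FPKM in PS-MP. The highest and the lowest of these libraries both belonged to PS-MP, and the fold change was 1.005 (95% interval 0.87 to 1.17, adjusted p = 0.985 by limma). Its log2 fold change was 0.01, and it turned negative under each of 3 other scalings of the libraries.

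Apob, the structural protein of VLDL, lies on chromosome 12 (7977648 to 8016835). It had 663.4, 609.9 and 711.5 FPKM in water and 771.0, 697.4 and 648.3 FPKM in PS-MP. The groups overlapped over most of their ranges, and the fold change was 1.07 (95% interval 0.91 to 1.25, adjusted p = 0.737 by limma).

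Of the proteins that regulate lipoprotein lipase, the enzyme that clears triglyceride from plasma particles, Apoc3 encodes an inhibitor and Apoa5 an activator. Apoc3 (chromosome 9, 46232933 to 46235636) had 457.1, 468.6 and 410.4 FPKM in water and 386.0, 415.3 and 457.6 FPKM in PS-MP, with a fold change of 0.94 (95% interval 0.81 to 1.09, adjusted p = 0.735 by limma). Apoa5 (chromosome 9, 46268633 to 46271919) had 272.1, 254.8 and 231.4 FPKM in water and 260.2, 295.1 and 301.7 FPKM in PS-MP. For Apoa5 the highest pair of libraries were PS-MP replicates 2 and 3, and PS-MP replicate 1 lay inside the water range. Its fold change of 1.13 (95% interval 0.98 to 1.31, adjusted p = 0.463 by limma) did not pass.

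Apoc1 encodes a small protein that hinders the uptake of remnant particles (chromosome 7, 19689481 to 19692660). It had 1811, 1721 and 1537 FPKM in water and 1372, 1430 and 1571 FPKM in PS-MP. Only PS-MP replicate 3 reached into the water range. The fold change was 0.86 (95% interval 0.73 to 1.02, adjusted p = 0.448 by limma). Apoe, next to it on the same strand (19696109 to 19699188), encodes the ligand by which remnants bind hepatic receptors. Apoe had 5739, 4955 and 4549 FPKM in water and 4751, 4830 and 4914 FPKM in PS-MP. The PS-MP values lay inside the water range and close together, with an SD of 81.9 FPKM against 604.6 FPKM in water, and the fold change was 0.96 (95% interval 0.77 to 1.18, adjusted p = 0.870 by limma). Without water replicate 1 its log2 fold change was 0.025 in place of -0.066.

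Macrophages and astrocytes also express Apoe. The 13 Kupffer cell and macrophage markers summed to 182.1 to 201.3 FPKM in water and 174.7 to 223.5 FPKM in PS-MP, with 10 of 13 higher in the mean and 0 of 13 past the threshold (limma-trend and limma-voom, each with 1 at an unadjusted p under 0.05). The 12 astrocyte and oligodendrocyte markers summed to 24.0 to 28.4 FPKM in water and 29.9 to 49.5 FPKM in PS-MP, the highest in PS-MP replicate 3. Most of this sum was Slc1a2, with 22.2, 22.3 and 18.6 FPKM in water and 27.6, 24.9 and 33.1 FPKM in PS-MP. Of the markers tested, 8 of 8 had a positive fold change and none passed with limma-trend or limma-voom. With each tool 1 had an unadjusted p under 0.05, which was Slc1a2 with limma-trend. Aldoc and Mbp, next by p, had at most 0.97 and 0.15 FPKM in a water library. In PS-MP replicates 1, 2 and 3 Aldoc had 1.36, 0.96 and 3.37 FPKM and Mbp 0.20, 0.16 and 1.87 FPKM. The sum, being mostly Slc1a2, does not show the level of the other markers. The oligodendrocyte genes Mobp and Mog had no read in water. In PS-MP replicates 1, 2 and 3 Mobp had 10, 2 and 114 reads and Mog had 1, 0 and 5. In PS-MP replicate 3 Apoe stood at 4914 FPKM, beside 4751 and 4830 FPKM in PS-MP replicates 1 and 2. The part of these cell types in the Apoe values was not tested.

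Apoh encodes beta-2-glycoprotein I, which binds anionic phospholipids (chromosome 11, 108343354 to 108414396). It was the steadiest of the 10, with 970.5, 957.9 and 899.0 FPKM in water and 877.4, 904.7 and 936.8 FPKM in PS-MP. The highest library exceeded the lowest by a factor of 1.11, and the fold change was 0.96 (95% interval 0.84 to 1.10, adjusted p = 0.813 by limma). Its exons overlap those of Prkca on the other strand, which was at 1.73 to 2.06 FPKM.

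Apoa4 encodes apolipoprotein A-IV, a protein of intestinal and hepatic particles that follows fat intake and fasting (chromosome 9, 46240696 to 46243459). It had 235.5, 333.9 and 367.5 FPKM in water and 277.9, 269.3 and 140.8 FPKM in PS-MP. PS-MP replicate 3 was the lowest library by a wide margin, and PS-MP replicates 1 and 2 lay inside the water range. The highest library exceeded the lowest by a factor of 2.61, against 1.11 to 1.32 for the other 9 genes. The means were 312.3 ± 68.6 FPKM in water and 229.3 ± 76.8 FPKM in PS-MP (SD, n = 3 each), and the fold change of 0.71 (95% interval 0.46 to 1.11) had an adjusted p of 0.506 by limma. Without PS-MP replicate 3 the log2 fold change was -0.17 in place of -0.48. That library held 3812 Apoa4 reads, and the others 6491 to 10270. Exons of the predicted genes Gm10680 and Gm47528 overlap Apoa4 on the other strand, with 0 reads and at most 24 reads in a library.

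The low value of Apoa4 in PS-MP replicate 3 was not shared by its neighbours. Apoa1, Apoc3, Apoa4 and Apoa5 lie within 43.3 kb of chromosome 9, a cluster conserved in mammals. In PS-MP replicate 3, relative to the water mean of each gene, Apoa4 stood at 0.45, Apoa1 at 0.92, Apoc3 at 1.03 and Apoa5 at 1.19. In water replicate 1 Apoa4 was also the lowest of the cluster, at 0.75, beside 0.92, 1.03 and 1.08 for Apoa1, Apoc3 and Apoa5. Most markers of enterocytes, which also make Apoa4, were at or near 0. Of the 10 examined, Rbp2 had no read in any library, 6 had at most 7 reads in a library, and 3 (Fabp2, Anpep and Slc5a1) were tested, none past the threshold (limma-trend and limma-voom, each with 1 at an unadjusted p under 0.05). The sum of the 10 was 99.6 to 115.4 FPKM in water and 92.5 to 101.9 FPKM in PS-MP, the lowest in PS-MP replicate 3, and most of it was Fabp2 and Anpep. The part of the neuron marker and Alb levels of PS-MP replicate 3 in its Apoa4 value was not tested.

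**Figure D3:**
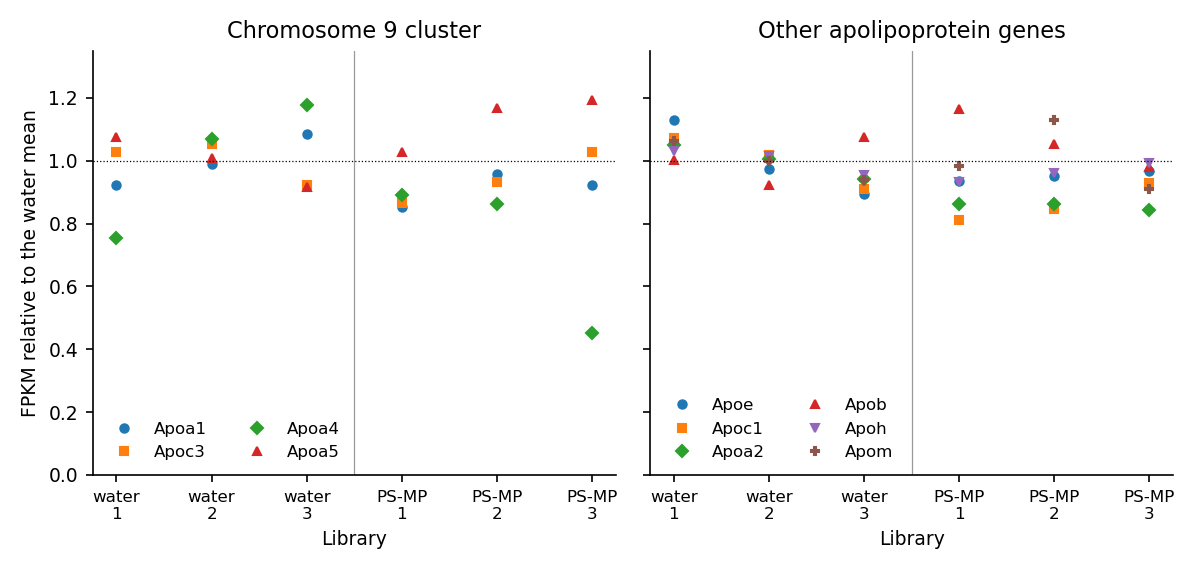
FPKM of each apolipoprotein gene in every library divided by its own mean over the 3 water libraries, with the chromosome 9 cluster on the left and the other genes on the right. Most points lie close to 1, and the green diamond of Apoa4 in PS-MP replicate 3 stands alone at 0.45.

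The genes whose pattern over the 6 libraries was most like that of Apoa4 were taken from 9976 others with a mean of at least 1 FPKM, by the mean absolute difference in log2(FPKM + 0.5) after each gene was centred on its own mean. They were Tmc7 (0.11), Gm30784 (0.13), Gm18095 (0.14) and Unc93a2 (0.14). Tmc7, a transmembrane channel-like gene, had 1.92, 2.85 and 3.21 FPKM in water and 2.29, 2.49 and 1.30 FPKM in PS-MP. It shared the low PS-MP replicate 3 and the low water replicate 1 of Apoa4, at a far lower level. Likeness over 6 libraries is a description and was not tested.

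Within each library the level of 1 gene can be divided by that of another, a measure that no scaling of the library alters. Of the 45 ratios between the 10 genes, 13 (28.9%) had PS-MP values outside the range of water, and over all pairs of the 371 genes at least as abundant as Apom the share was 22.7%. Of the 13 ratios, 7 had Apoa5 and 5 had Apoa2 as a partner, with the ratio between these genes counted in both. Apoa5 to Apoc1 was 0.150, 0.148 and 0.151 in water and 0.190, 0.206 and 0.192 in PS-MP. Apoa5 to Apoc3, the activator over the inhibitor, was 0.595, 0.544 and 0.564 in water and 0.674, 0.711 and 0.659 in PS-MP. Apoa2 to Apoa5 was 16.8, 17.1 and 17.7 in water and 14.4, 12.7 and 12.1 in PS-MP. These ratios were picked for their values out of 45 and carry no test.

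Several genes had their extreme values in the same library. In water replicate 3, 7 of the 10 genes had their lowest water value and the remaining Apoa1, Apoa4 and Apob their highest. In water replicate 1, 6 of the 10 had their highest water value. In PS-MP replicate 1, 6 of the 10 had their lowest PS-MP value. The same shares over all genes tested were not computed, so these counts cannot tell a trait of the 10 genes from one of the whole library. The 10 genes together took 4.54% to 4.77% of the summed FPKM of a library in water and 4.15% to 4.29% in PS-MP, which did not overlap. Taken singly, 19.2% of all genes tested had groups that did not overlap. Most of the level of the 10 genes was Apoe, Apoa1 and Apoa2 (water means of 5081, 4687 and 4342 FPKM). Of these only Apoa2 had groups that did not overlap. As a share of reads, in which the long Apob weighs more, the 10 genes took 3.18% to 3.39% in water and 3.11% to 3.19% in PS-MP, which overlapped.

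Other apolipoproteins gave no call either. Of 14 further genes of this kind, 13 were tested and 0 passed (limma-trend; 2 had an unadjusted p under 0.05, and limma-voom also called 0, with 3), with a median log2 fold change of -0.05. Apon, a liver apolipoprotein of rodents, had 217.4, 206.5 and 191.1 FPKM in water and 163.0, 167.4 and 162.0 FPKM in PS-MP. Its groups did not overlap, with a log2 fold change of -0.32 ± 0.07 (standard error) and an adjusted p of 0.121 by limma. Apol9b had a log2 fold change of -0.32 (adjusted p = 0.191 by limma) and Saa4, a constitutive serum amyloid protein of HDL, 0.40 (adjusted p = 0.39 by limma). Apoc2 and Apoc4, which share the chromosome 7 cluster of 27.6 kb with Apoe and Apoc1, had -0.18 and -0.05.

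The genes that act on apolipoproteins were compared in the same fit, in which 0.489% of all genes tested passed and 13.1% had an unadjusted p under 0.05. For the editing of Apob mRNA, which gives the short form of the protein, 0 of 4 genes passed (limma-trend; 1 had an unadjusted p under 0.05, Rbm47 at a log2 fold change of 0.17), and the cofactor A1cf had -0.13 and the RNA-binding Syncrip 0.14. For VLDL assembly, 0 of 18 passed (2 at an unadjusted p under 0.05), with a median of 0.04. Mttp, which loads lipid onto apolipoprotein B, had 92.5 ± 3.67 FPKM in water and 82.2 ± 6.35 FPKM in PS-MP (SD, n = 3 each; log2 fold change -0.17, adjusted p = 0.388 by limma). Pla2g12b, which is needed for VLDL of normal size, had -0.30 and Mia2, a cargo receptor of the endoplasmic reticulum, 0.20.

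For HDL lipidation and plasma remodelling, 0 of 16 passed with limma-trend, with a median log2 fold change of -0.05. An unadjusted p under 0.05 was found for 4 of 16 (25%), against 13.1% of all genes tested. Angptl4, an inhibitor of lipoprotein lipase, had -0.41, the cholesterol-esterifying enzyme Lcat -0.20 and the hepatic lipase gene Lipc -0.25, with adjusted p of 0.131, 0.351 and 0.357 by limma. The fourth, the endothelial lipase gene Lipg, went the other way at 0.53 (adjusted p = 0.360 by limma). For receptors and uptake, 14 of 15 genes were tested and 0 passed with limma-trend, with a median of 0.08. Of the 14, 3 (21.4%) had an unadjusted p under 0.05. The Wnt co-receptor Lrp5 had a log2 fold change of -0.37 and Sdc1, a heparan sulphate proteoglycan that binds remnants, -0.26. Limma-voom also called 0 genes in each of these 4 lists, with 1, 2, 5 and 3 at an unadjusted p under 0.05 in the order given.

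Of 28 transcription regulators with known or reported targets among apolipoprotein genes, 2 passed, both higher in PS-MP, where 0.489% of all genes tested passed in either direction. An unadjusted p under 0.05 was found for 11 of 28 (39.3%) with limma-trend, against 13.1% of all genes tested. With limma-voom it was found for 12 of 28, against 1773 of the 13299 genes tested. The median log2 fold change over the list was 0.03, with 16 positive and 12 negative. Dbp, a clock output factor that binds the D-box, had 1.06, 3.29 and 1.63 FPKM in water and 9.60, 11.1 and 17.1 FPKM in PS-MP (log2 fold change 2.45, adjusted p = 0.0366 by limma). Nr1d2, which encodes the clock repressor REV-ERB beta, had 12.03, 14.7 and 13.6 FPKM in water and 22.5, 22.7 and 24.0 FPKM in PS-MP (log2 fold change 0.76, adjusted p = 0.0243 by limma). The groups did not overlap for either gene. Dbp overlaps Sphk2 on the other strand. Nfil3, which competes for the D-box, had a log2 fold change of -0.92 and an adjusted p of 0.0909 by limma-trend, which did not pass, and of 0.0389 by limma-voom, which did. The limma-trend adjusted p of Dbp was 0.125 without water replicate 1, 0.155 without water replicate 3, and 0.0542, 0.0891 and 0.0544 without PS-MP replicates 1, 2 and 3. That of Nr1d2 was 0.105 without water replicate 1, 0.128 without water replicate 3, and 0.0598 and 0.0519 without PS-MP replicates 2 and 3. The hepatocyte regulator Hnf4a, chosen after its values were seen, had 185.5 ± 16.9 FPKM in water and 187.9 ± 11.1 FPKM in PS-MP (SD, n = 3 each).

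**Figure D4:**
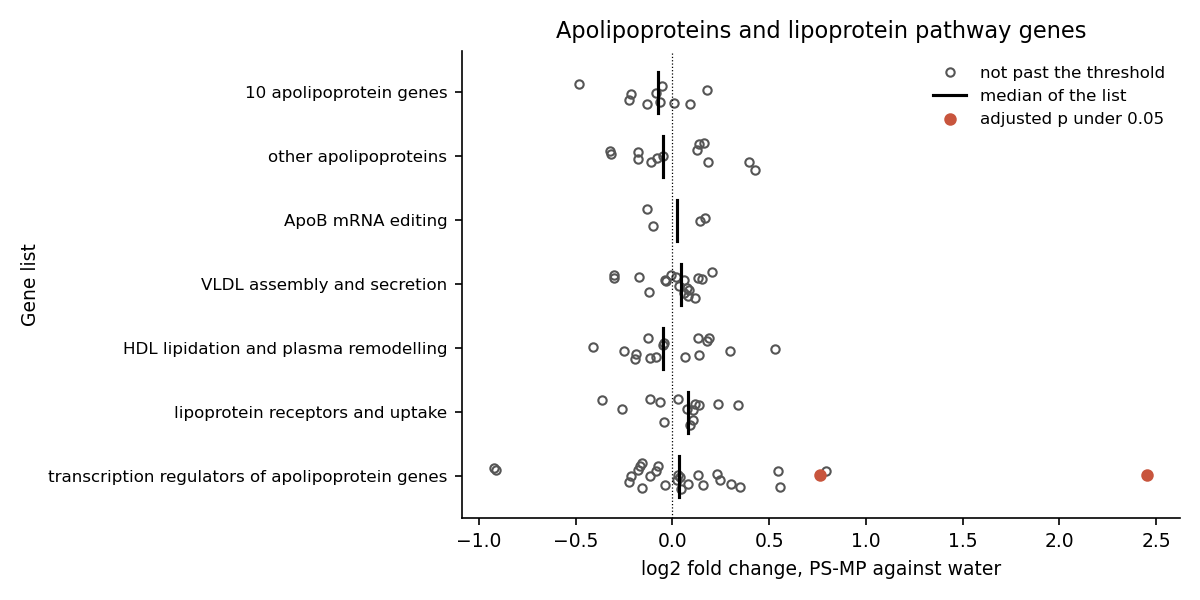
Log2 fold change of PS-MP against water for the apolipoprotein genes and for 6 lists of lipoprotein pathway genes, 1 circle per tested gene, with filled circles past the adjusted threshold and black bars at list medians. The medians lie between -0.08 and 0.08, and the filled circles are Nr1d2 (0.76) and Dbp (2.45).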

How the data were processed

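Gene-level FPKM values from 6 mouse liver RNA libraries (3 water, 3 PS-MP) were used. The deposited unit is FPKM, computed by the authors, whose processing notes list CASAVA, FastQC, MultiQC, Trimmomatic 0.38, HISAT2 2.1.0, featureCounts 1.6.0 and DESeq2 1.22.1. The submitters' processing notes name the human build GRCh38, but all 55536 identifiers matched GENCODE M21 (mouse, GRCm38), which gave symbols and coordinates. Sources used here do not give the strand setting. Each FPKM times the merged exon length was a whole multiple of the value of 1 read, so reads and depth were recovered.

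Limma-trend (limma 3.58.1, R 4.3.3) was fitted to log2(FPKM + 0.5) with group as the only term, over all genes with at least 0.66 CPM in 3 libraries and 15 reads in all, and p-values were adjusted by Benjamini-Hochberg over these 13299 genes (threshold 0.05, two-sided). Fold changes are on this scale and slightly understate those of low genes. Named genes were the 10 members, up to 3 genes with the smallest p and those past the threshold in each list, members of counts of 5 or fewer, and the 4 genes most like the member of widest range; others are marked, and 1 gene that the rule names is not reported here. Members and lists were chosen with earlier results of these data known. The procedure was also run on simulated data, with the same spread for all genes and no outlying library, so that run does not speak to PS-MP replicate 3. Its outcome is not reported here. No pair of replicate libraries held identical values, and their reads differed by 9.99 to 28.3 times the chi-square expected from sampling (over genes with at least 20 reads). Scaling, pseudocount, low-count rule, model, replicate block and left-out libraries were the alternatives.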

Additional observations from a re-analysis of the deposited data

Results flagged for a closer look

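Among the pathway genes with too few reads to be tested, a pair had more reads in 1 PS-MP library than in every water library. Apod, an apolipoprotein abundant in nervous tissue and fat, had at most 1 read in a water library, and 2, 1 and 19 reads in the libraries of PS-MP replicates 1, 2 and 3. Lrp8, a receptor of apolipoprotein E in neurons, had at most 3 reads in a water library, and 3, 2 and 23 reads in those of PS-MP. For both the high library was PS-MP replicate 3. That library also held the most forebrain neuron markers (50.5 FPKM in sum) and astrocyte and oligodendrocyte markers (49.5 FPKM in sum, 33.1 FPKM of it Slc1a2). Slc1a2 was also at 18.6 to 22.3 FPKM in water, so the latter sum does not show the level of the other markers. Among these, Mbp had at most 0.15 FPKM in a water library and 0.20, 0.16 and 1.87 FPKM in PS-MP replicates 1, 2 and 3. The part of the neuron and glial transcripts in the Apod and Lrp8 reads was not tested.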

How the results depend on the processing

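Under 16 alternatives, 0 of the 10 apolipoprotein genes passed in any, and the lowest adjusted p was 0.191, for Apoa2 with limma-voom. Of 160 fitted values 6 turned their sign. Apom had a log2 fold change of -0.017 with median-of-ratios scaling, -0.028 with TMM scaling and -0.010 with the 20 most abundant genes left out of the library total. With 1 library left out, Apom ranged from -0.079 (PS-MP replicate 2 out) to 0.078 (PS-MP replicate 3 out), Apoe from -0.14 (water replicate 3 out) to 0.025 (water replicate 1 out) and Apoa4 from -0.67 (water replicate 1 out) to -0.17 (PS-MP replicate 3 out). The 8 genes other than Apom and Apoe kept their direction in all 16. Of the other named genes, Gm18095 ranged from -0.58 to 0.049 and the enterocyte marker Slc5a1 from -0.069 to 0.027 with 1 library left out.

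Over all genes, 65 were called (32 higher, 33 lower). The count was 131 with limma-voom, 0 with no low-count rule (26854 genes tested, 2064 at an unadjusted p under 0.05), and 0 to 33 with 1 library left out. With a replicate block it was 23. No label says that the numbers pair mice, so they were not taken to do so. Deviations of same-numbered libraries had correlations of -0.04, 0.05 and -0.01, and those of differently numbered libraries ran from -0.05 to 0.07. With 3 libraries per group these correlations cannot decide whether mice were paired. With TMM scaling 22 were higher and 33 lower, and with median-of-ratios scaling, or with the 20 most abundant genes left out of the total, 24 were higher and 33 lower. Among the 28 regulators, the count of 2 became 0 with no low-count rule, 1 with robust empirical Bayes, 1 with the replicate block and 0 to 2 with 1 library left out. The lone calls were Nr1d2 with robust empirical Bayes and Nfil3 with the block (adjusted p = 0.0447 by limma). The 10 genes had 1233 reads or more in every library, and each group held 3 libraries.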

Other observations

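Of the 12 hepatocyte markers 0 passed with limma-trend or limma-voom, 0 had an unadjusted p under 0.05 with either, and their median log2 fold change was -0.04. Albumin took 7.25% to 7.95% of all reads in water and 7.54%, 6.98% and 5.77% in PS-MP replicates 1, 2 and 3, so its lowest share was in the library with the lowest Apoa4. Of the 10 stellate cell markers 0 passed and 0 had an unadjusted p under 0.05 with either tool, with a median of 0.07 and sums of 38.8 to 55.4 FPKM in water and 44.6 to 55.5 FPKM in PS-MP. Of the 7 fat markers tested 0 passed and 0 had an unadjusted p under 0.05 with either tool, with a median of -0.69 and the highest sum in water replicate 1.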
